A study of Mus musculus with 6 samples.

Results

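The proteasome subunit genes were taken as every entry of the expression table whose symbol begins with Psma, Psmb, Psmc, Psmd, Psme, Psmf or Psmg followed by a number. This rule found 48 of the 13724 gene entries. They comprise 14 genes of the 20S core particle, 4 inducible beta subunits, 17 genes of the 19S regulatory particle, 5 activators or inhibitors and 7 assembly chaperones. The remaining entry, Psmc3ip, fits the symbol rule but encodes a protein of meiotic recombination and no part of the proteasome. The samples came from wild type C57Bl6/J mice exposed to warmth in 3 numbered warm challenges. Each challenge gave 1 input library, made from total RNA of the dissected anterior hypothalamus, and 1 library of the RNA that came down with an antibody to phosphorylated ribosomal protein S6 (IP), so that 3 inputs and 3 IP libraries were compared. Phosphorylation of S6 follows neuronal activity, and the IP is therefore meant to enrich the ribosome-bound RNA of active cells. No group at another temperature was measured, neither the age of the animals nor any pooling of them is given, and the labels do not say that the libraries came from separate animals. The p-values thus measure only the spread between these samples, which may be technical.

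The proteasome is the protease that degrades most short-lived and misfolded proteins of the cytosol and nucleus after they have been tagged with ubiquitin. Its 20S core is a barrel of outer alpha rings, which gate the entrance, and inner beta rings, which hold the proteolytic sites. The 19S regulatory particle caps the core: a base with a ring of ATPases unfolds substrates and feeds them into the barrel, and a lid removes the ubiquitin chain. In neurons, proteasomes act both in the soma and at synapses, where protein turnover accompanies changes in activity.

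Summed RPKM (read counts scaled by gene length and library size) lay between 374710 and 496120 per library. The absolute depth is unknown, and the relative depth read from low values lay between 1 for input 1 and 1.59 for IP 2. Across genes, the inputs had pairwise rank correlations (Spearman) of 0.952 to 0.980, and the IP libraries 0.915 to 0.955. The activity-induced transcription factor genes Fosb and Fos were higher in IP, by log2 folds of 4.08 and 2.42 (limma, adjusted p = 0.000308 and 0.0161), in the direction of the fraction labels. IP 1 stood apart: leaving it out brought the share of all genes past the threshold from 4.19% to 13.8%, while each other omission gave 0.174% to 0.769%. The labelled source is preoptic neurons, but 11 oligodendrocyte markers summed to 1121 to 1245 RPKM in input and 380 to 578 RPKM in IP, and 8 of the 11 were lower in IP. Erythroid markers summed to 14.1 to 50.3 RPKM in input and 202 to 567 RPKM in IP, with 3 of 3 tested higher, ependymal markers had 1 of 3 lower, and of 8 astrocyte markers 0 passed. Neuronal markers (12 of 13 listed) summed to 4956 to 6608 RPKM in input and 4887 to 8455 RPKM in IP, with 0 of 12 past the threshold. In tissue of mixed cell types, fewer cells of a type, less RNA per cell and less RNA brought down by the antibody cannot be told apart.

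No proteasome gene passed the test between IP and input. Of the 47 members tested, 0 were higher and 0 lower in IP (limma, adjusted p under 0.05), where 0.892% of all 12328 genes tested were higher and 3.29% lower. At an unadjusted p under 0.05 there were 3 members, or 6.38%, against 24.4% of all genes. The 3 were all lower in IP, the direction of 19.3% of all genes. The members also spread more within fractions, with a median SD of log2(RPKM + 1) of 0.361 against 0.310 for all genes. The part of this spread in the low share was not tested. With the warm challenge number as a replicate block, 0 of 47 passed as well, beside 5.32% of all genes. The untested member was Psmb8, which did not reach the minimum of 1 RPKM in 3 libraries. Psmd9 had the lowest adjusted p of the members (0.104).

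Log2 folds of IP over input, on the log2(RPKM + 1) scale, ran from -0.65 for Psmd10 to 0.56 for Psmd14, with a median of -0.07, while the median of all genes was -0.18. Scaling the libraries to a common median brought the median of all genes to -0.01 and turned that of the members positive (0.11). For 35 of the 47 members (74.5%) the 95% interval of the fold lay wholly inside a 2-fold change in either direction, which held for 54.3% of all genes. The intervals are not adjusted for the number of genes. The 12 members with wider reach were Psmb2, Psmb4, Psmb10, Psmc3ip, Psmd5, Psmd7, Psmd9, Psmd10, Psmd14, Psme2, Psmg2 and Psmg4. Groups that did not overlap were seen for 5 members: Psmd14 stood above input in every IP library (6.85% of all genes did so), and Psme3, Psmd5, Psmd9 and Psmd10 stood below it (23.5% of all genes).

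**Figure D1:**
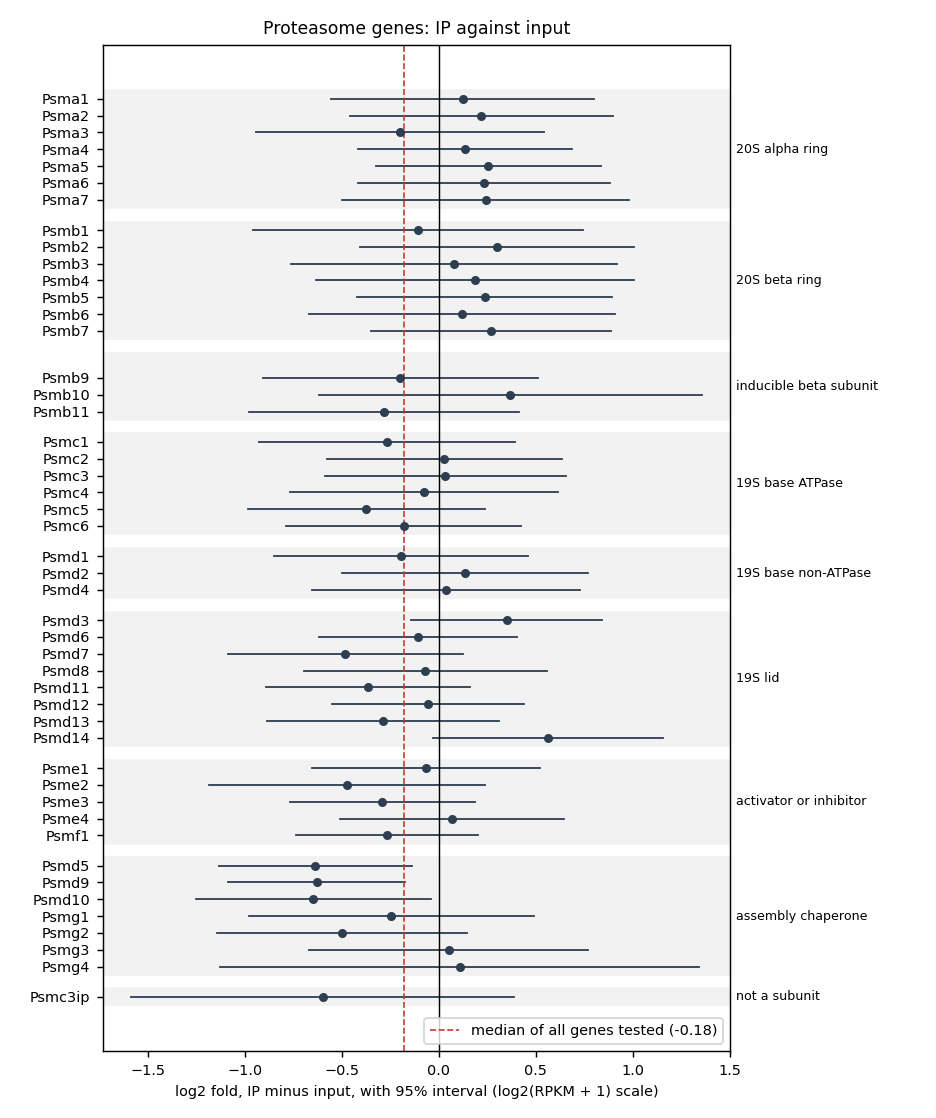
Log2 fold of IP over input (points) with its 95% interval (lines) for the 47 proteasome genes tested, grouped by role, on the log2(RPKM + 1) scale. The solid line marks 0 and the dashed line the median of all genes (-0.18); most 20S core genes lie to the right of 0, and Psmd5, Psmd9 and Psmd10 have intervals wholly below 0 but miss the threshold after adjustment.

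Proteasome transcripts were abundant in both fractions. Together they made up 0.920% ± 0.0998 of the summed RPKM in input and 0.967% ± 0.136 in IP (SD, n = 3 each), a difference within the spread between libraries. RPKM is a value per length, which allows a rough comparison of levels between genes. The annotation and the handling of reads from near-identical copies are unknown, so ranks and ratios between genes are approximate. The median member measured 67.4 RPKM in input and 69.1 RPKM in IP, and Spearman's rho between the mean input and mean IP levels was 0.981 across the 48 genes, which share libraries and are not independent replicates. Single ranks moved all the same: Psmc5 was rank 1 in input and 4 in IP, Psma3 rank 5 and 12, and Psmd14 rank 18 and 11. Core genes were the most abundant class, with a median of 154 RPKM in input, about 2 times that of the 19S genes (75.9 RPKM). Assembly chaperones had a median of 19.8 RPKM. Within the core, mean input levels spanned 4.19-fold, from Psma1 (64.3 RPKM) to Psmb4 (269 RPKM). Within the 19S particle they spanned 11.5-fold, from Psmd3 (24.8 RPKM) to Psmc5 (284 RPKM). Psmc5, Psmb4, Psmb7 and Psma7 took the first ranks in input, at 284 ± 45.4, 269 ± 97.4, 231 ± 23.0 and 218 ± 57.4 RPKM (SD, n = 3 each), neighbours that do not differ beyond their spread.

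**Figure D2:**
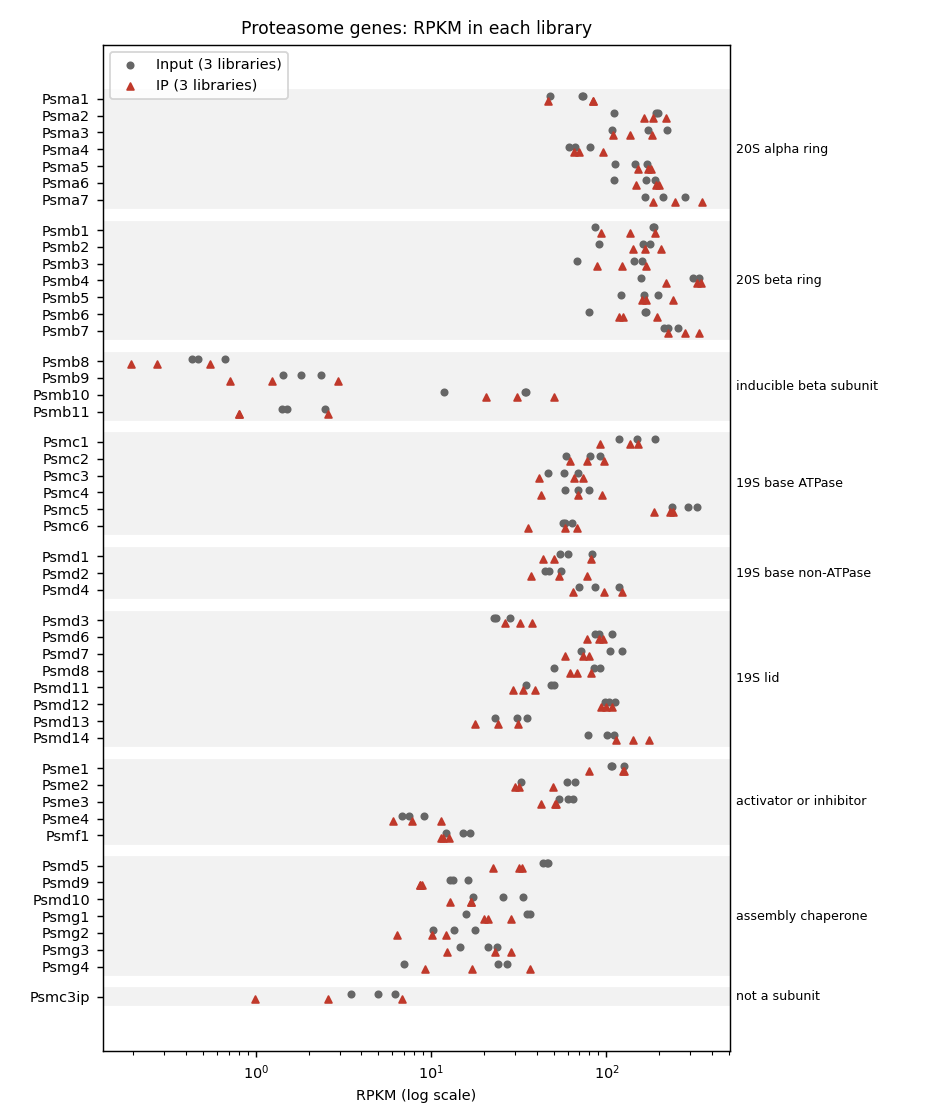
RPKM of each of the 48 proteasome genes (log axis) in the 3 input libraries (grey circles) and the 3 IP libraries (red triangles), grouped by role. Circles and triangles overlap for most genes. Psmb8, Psmb9 and Psmb11 lie below all other genes except Psmc3ip, whose values overlap those of Psmb9 and Psmb11. Psmd14, Psme3, Psmd5, Psmd9 and Psmd10 show fractions that do not overlap.

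Proteasome genes are known to be induced together by the transcription factor Nrf1 (gene Nfe2l1) through antioxidant response elements, so the starts of the members were searched for the letters of that element. RefSeq windows of build GRCm38.p6, from 250 bases before to 50 after a start, were found for 41 of the 48 members (44 windows). The core letters TGACNNNGC, on either strand, were in 6 of 44 windows (13.6%) and in 12.4% of all 32851 windows. The CCAAT box (CCAAT, either strand) was in 34.1% of member windows and 37.4% of all, and the GC box (GGGCGG, either strand) in 54.5% and 35.7%. The cyclic AMP response element TGACGTCA, through which activity acts on many immediate early genes, was in 0 of 44 member windows and in 1.79% of all. The stretches around the antioxidant element before Psmb5, Psmb6 and Psmd9 are shown because they lie closest before the start and belong to genes with folds of both signs (0.24, 0.12 and -0.63). Letters in capitals mark the TGACNNNGC match, and each stretch is written 5′ to 3′ on the strand of its gene, at chr14:54618014-54618062 (minus strand), chr11:70525328-70525356 (plus) and chr5:123228139-123228187 (plus) of GRCm38.p6.
Psmb5: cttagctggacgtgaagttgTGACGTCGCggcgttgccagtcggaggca
Psmb6: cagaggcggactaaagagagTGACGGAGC
Psmd9: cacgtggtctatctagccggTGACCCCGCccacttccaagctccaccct
The matches begin 47, 9 and 31 bases before the start, and that of Psmd9 overlaps a GC box on the opposite strand. A match is a description of the letters and not a binding site. Nfe2l1 itself measured 55.5 RPKM in input and 59.3 RPKM in IP, and its log2 fold was 0.05 (adjusted p = 0.939).

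The alpha ring genes Psma1 to Psma7 encode the outer ring of the barrel, through which substrates enter. Of these 7 genes, 0 passed the test, 6 had a positive fold, and the median log2 fold was 0.22. Psma7, the most abundant, measured 210, 279 and 165 RPKM in inputs 1 to 3 and 185, 349 and 247 RPKM in IP 1 to 3. The fractions overlapped, with IP 1 and IP 3 inside the input range, and the log2 fold was 0.24 (SE 0.33, adjusted p = 0.702), or 0.0073 without IP 2. Psma5 had the largest fold of the ring, at 145, 170 and 112 RPKM in inputs 1 to 3 and 152, 180 and 172 RPKM in IP 1 to 3 (log2 fold 0.26, SE 0.26, adjusted p = 0.587). IP 1 again lay inside the input range, and IP 2 and IP 3 above it. The other members had log2 folds of 0.12 for Psma1, 0.22 for Psma2, 0.14 for Psma4 and 0.23 for Psma6, and Psma3 was the exception with -0.20.

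The beta ring genes hold the proteolytic sites in Psmb5 (chymotrypsin-like activity), Psmb6 (caspase-like) and Psmb7 (trypsin-like), while Psmb1 to Psmb4 have structural roles. Here too 0 of 7 passed, 6 had a positive fold, and the median was 0.19. After quantile normalization it was 0.14, and that of the alpha ring 0.16. Median scaling raises every fold by the same amount and could not turn either median negative. Psmb5, the subunit that bortezomib and related inhibitors block first, measured 164, 197 and 121 RPKM in inputs 1 to 3 and 160, 240 and 168 RPKM in IP 1 to 3 (log2 fold 0.24, SE 0.29, adjusted p = 0.667). Psmb7 had 0.27 and Psmb6 0.12. Psmb4, the most abundant core transcript, measured 338, 312 and 158 RPKM in inputs 1 to 3 and 329, 345 and 218 RPKM in IP 1 to 3. Input 3 was low, and without it the log2 fold of Psmb4 went from 0.19 (SE 0.37, adjusted p = 0.798) to -0.16. Psmb2 had the largest fold of the ring (0.30, SE 0.32, adjusted p = 0.603), from 162, 177 and 90.6 RPKM in inputs 1 to 3 and 142, 206 and 166 RPKM in IP 1 to 3. Its fractions overlapped, input 3 was again the lowest, and without it the fold was 0.0037. Psmb3 had a log2 fold of 0.08 and Psmb1 one of -0.11.

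Inducible beta subunits replace the catalytic ones in the immunoproteasome of interferon-treated and immune cells, and Psmb11 does so in the thymus. Psmb8, which replaces Psmb5, was near the floor of the table, at 0.434, 0.468 and 0.668 RPKM in inputs 1 to 3 and 0.545, 0.273 and 0.195 RPKM in IP 1 to 3. Its level was 0.351% ± 0.173 of that of Psmb5 in input and 0.190% ± 0.131 in IP (SD, n = 3 each), which overlap. Psmb9 measured 1.64% ± 1.16 of Psmb6 in input and 1.24% ± 1.10 in IP. Psmb10 was the abundant one, at 11.7% ± 5.67 of Psmb7 in input and 11.7% ± 2.98 in IP. It measured 34.1, 35.0 and 11.8 RPKM in inputs 1 to 3 and 20.6, 50.1 and 30.7 RPKM in IP 1 to 3, a log2 fold of 0.37 (SE 0.44, adjusted p = 0.654) that was -0.12 without input 3. Its fractions overlapped, with a low input 3 and a low IP 1. Psmb9 had a log2 fold of -0.20 and Psmb11 one of -0.28, both from means under 2 RPKM. Markers of microglia, of which 8 of 9 were listed, summed to 8.73 to 19.4 RPKM in input and 6.77 to 11.003 RPKM in IP, and their part in these values was not tested.

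In the base of the 19S particle, the ATPases Psmc1 to Psmc6 form the unfolding ring. Of 6 genes, 0 passed, 4 had a negative fold, and the median was -0.13 (0.05 after median scaling). Psmc5 was both the most abundant and the one with the largest fold, at 291, 326 and 236 RPKM in inputs 1 to 3 and 240, 229 and 187 RPKM in IP 1 to 3. The lowest input exceeded 2 of the 3 IP libraries, and the log2 fold was -0.37 (SE 0.27, adjusted p = 0.436). Psmc1 had -0.27, Psmc6 -0.18, Psmc4 -0.08, Psmc3 0.03 and Psmc2 0.03. Among the base subunits without ATPase activity, Psmd4 is a ubiquitin receptor, and Psmd1 and Psmd2 are scaffolds that dock shuttle factors and a deubiquitinase. The log2 fold of Psmd4 was 0.04 (SE 0.31, adjusted p = 0.961), Psmd2 0.14, and Psmd1 -0.20 (SE 0.29, adjusted p = 0.724). Psmd1 measured 54.5, 60.6 and 82.7 RPKM in inputs 1 to 3 and 82.0, 43.5 and 50.4 RPKM in IP 1 to 3, so that IP 1 lay near the top of the inputs and the other IP libraries below all of them.

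The lid contained the member with the largest positive fold. Psmd14, the metalloprotease that cuts the ubiquitin chain from the substrate, measured 100, 110 and 78.5 RPKM in inputs 1 to 3 and 113, 175 and 142 RPKM in IP 1 to 3. Every IP library exceeded every input, as in 6.85% of all genes, although IP 1 did so narrowly. The log2 fold was 0.56 (SE 0.26, adjusted p = 0.226), and without IP 1 it was 0.72 (adjusted p = 0.0832, limma), so the threshold was not passed. Over the 8 lid genes the median fold was -0.09 (0.09 after median scaling). Psmd3 was the other lid gene with a positive fold (0.35). The folds of the remaining lid genes were -0.48 for Psmd7, the partner of Psmd14, -0.37 for Psmd11, -0.29 for Psmd13, -0.11 for Psmd6, -0.07 for Psmd8 and -0.06 for Psmd12. Psmd12 was the steadiest member of all, at 93.4 to 112 RPKM over the 6 libraries, a highest value 1.19 times the lowest.

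The core and the regulatory particle had median folds of different sign, but the order of the medians was not the same in each warm challenge. Over the 6 libraries, 12 of 14 core genes and 6 of 17 regulatory genes had a positive fold, against 34.8% of all genes, with medians of 0.20 and -0.08. Within warm challenges 2 and 3, the median IP minus input difference was 0.21 and 0.44 for core genes and -0.18 and -0.26 for regulatory genes. Within warm challenge 1 it was -0.07 for core genes and 0.17 for regulatory genes. The number of core genes higher in IP was 5, 13 and 13 of 14 in challenges 1, 2 and 3, and that of regulatory genes was 13, 3 and 4 of 17. Over all 12328 genes tested, 4392, 4596 and 4882 were higher in these challenges, with medians of -0.22, -0.17 and -0.17. The core median thus lay above that of all genes in challenge 1 too. A rise from challenge 1 to challenge 3 was also seen in some ubiquitin pathway genes, given below. Without input 3 the core had 7 of 14 positive folds and a median of -0.02, and without IP 2 it had 8 of 14 and 0.03. Without IP 1 the regulatory particle had 2 of 17 positive folds and a median of -0.14, and without IP 3 its median was 0.02. Median scaling, which adds the same amount to every fold, made both medians positive (0.38 and 0.10), while quantile normalization gave 0.16 and -0.07.

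The ratio of summed core to summed regulatory RPKM was 1.65, 1.55 and 1.23 in inputs 1 to 3 and 1.48, 2.00 and 1.86 in IP 1 to 3. IP 2 and IP 3 lay above all inputs and IP 1 inside their range, with 1.48 ± 0.221 in input and 1.78 ± 0.272 in IP (SD, n = 3 each). The difference between the core and regulatory median folds was 0.28, and leaving out 1 library moved it between 0.13 (without input 3) and 0.35 (without input 2). Without both libraries of warm challenge 1, an omission chosen after the values were seen, it was 0.53. Input 3 held the lowest of the 3 input values for 13 of 14 core and 14 of 17 regulatory genes, and IP 3 the lowest IP value for 9 of 14 and 15 of 17. The same share over all genes was not computed. The median log2(RPKM + 1) of all genes tested was 3.53, 3.49 and 3.53 in inputs 1 to 3. In IP 1 to 3 it was 3.33, 3.32 and 3.37. Neuronal markers summed to 4887 RPKM in IP 1 against 6967 and 8455 RPKM in IP 2 and IP 3, and oligodendrocyte markers to 380 RPKM against 550 and 578 RPKM. The part of these markers in the ratio was not tested.

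**Figure D3:**
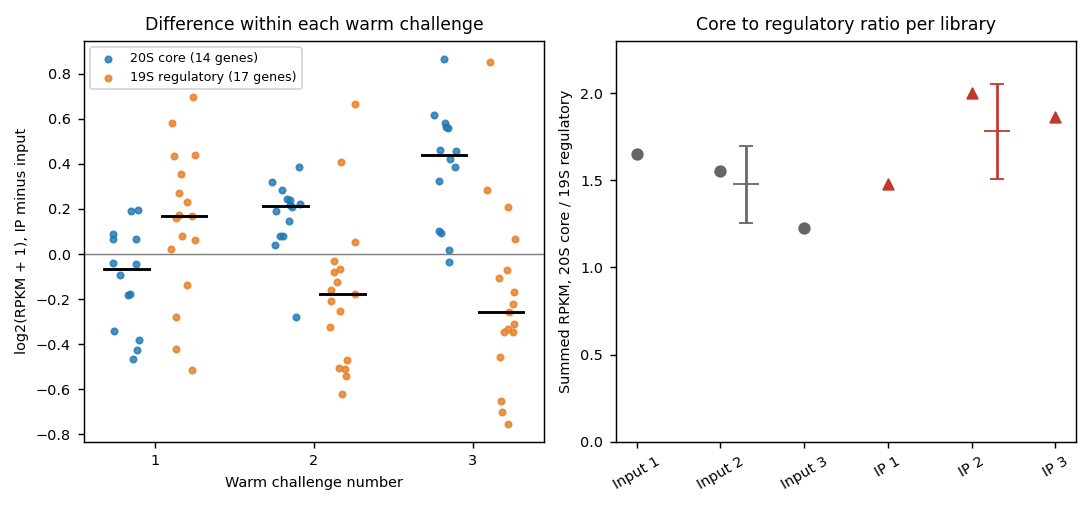
Left, the IP minus input difference in log2(RPKM + 1) within each warm challenge for the 14 genes of the 20S core (blue) and the 17 genes of the 19S regulatory particle (orange), 1 point per gene and a bar at the median; core medians lie above regulatory medians in challenges 2 and 3 and below in challenge 1. Right, the ratio of summed core to summed regulatory RPKM in each library, with mean ± SD per fraction (n = 3 each); IP 2 (2.00) and IP 3 (1.86) lie above all inputs.

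Activators cap the core in place of the 19S particle. Psme1 and Psme2 form the interferon-inducible cap, Psme3 a nuclear one, Psme4 is a large single-chain activator, and Psmf1 was described as an inhibitor. Of these 5 genes, 0 passed, 4 had a negative fold, and the median was -0.27. For Psme1, the most abundant, the fold was -0.07 (SE 0.26, adjusted p = 0.912). Its partner Psme2 had -0.47 (SE 0.32, adjusted p = 0.393), at 66.5, 59.7 and 32.7 RPKM in inputs 1 to 3 and 30.1, 49.5 and 31.7 RPKM in IP 1 to 3, with input 3 among the IP values. Psme3 measured 53.7, 64.0 and 59.9 RPKM in inputs 1 to 3 and 42.5, 51.0 and 51.3 RPKM in IP 1 to 3. These fractions did not overlap, with IP below input as in 23.5% of all genes. The log2 fold of -0.29 (SE 0.21, limma, adjusted p = 0.436) was close to that of the median gene. Psmf1 had -0.27 and Psme4 0.07.

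Assembly chaperones bind intermediates and leave or are degraded when the particle is finished. Psmg1 to Psmg4 build the alpha ring, and Psmd5, Psmd9 and Psmd10 bind the ATPases while the base is built. The class had the lowest median fold of the proteasome roles (-0.50, or -0.32 after median scaling). Of its 7 folds 5 were negative, as were 8040 of 12328 over all genes. It held all 3 members with an unadjusted p under 0.05 (limma), all lower in IP, as were 19.3% of all genes at that level. Psmd9 measured 13.3, 16.3 and 12.7 RPKM in inputs 1 to 3 and 8.64, 8.59 and 8.87 RPKM in IP 1 to 3, a log2 fold of -0.63 (SE 0.20, adjusted p = 0.104). Psmd5 measured 43.7, 45.8 and 46.2 RPKM in inputs 1 to 3 and 33.0, 31.6 and 22.6 RPKM in IP 1 to 3 (log2 fold -0.64, SE 0.22, adjusted p = 0.122). Psmd10, also known as the oncoprotein gankyrin, measured 25.7, 33.5 and 17.4 RPKM in inputs 1 to 3 and 12.7, 16.96 and 16.9 RPKM in IP 1 to 3 (log2 fold -0.65, SE 0.27, adjusted p = 0.179). In all 3 genes every IP library lay below every input, as in 23.5% of all genes, for Psmd10 by a small margin at input 3. With the replicate block their adjusted p-values were 0.0872, 0.0979 and 0.135 in that order, and after median scaling 0.252, 0.293 and 0.368. Of the oligodendrocyte markers, 8 of 11 were lower in IP and 0 higher (median log2 fold -1.69), and their part in the values of these genes was not tested.

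The alpha ring chaperones varied more. Psmg2 had a log2 fold of -0.50 and was below its input in all 3 challenges, Psmg1 had -0.25, Psmg3 0.05 and Psmg4 0.11. Psmg4 had the largest pooled SD within fractions of the 48 members (0.97 on the log2(RPKM + 1) scale). Its values were 24.0, 27.1 and 6.975 RPKM in inputs 1 to 3 and 9.25, 36.6 and 17.2 RPKM in IP 1 to 3. It was below its input in challenge 1 and above it in challenges 2 and 3. A direction shared by all 3 challenges was seen in 4 of the 7 chaperone genes, all 4 lower in IP, which was the case for 37.5% of all genes. Psmc3ip, which is no chaperone and no subunit, measured 6.18, 4.97 and 3.48 RPKM in inputs 1 to 3 and 0.982, 6.78 and 2.59 RPKM in IP 1 to 3 (log2 fold -0.60, SE 0.44, adjusted p = 0.441). Its fold was 0.03 without both libraries of warm challenge 1.

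**Figure D4:**
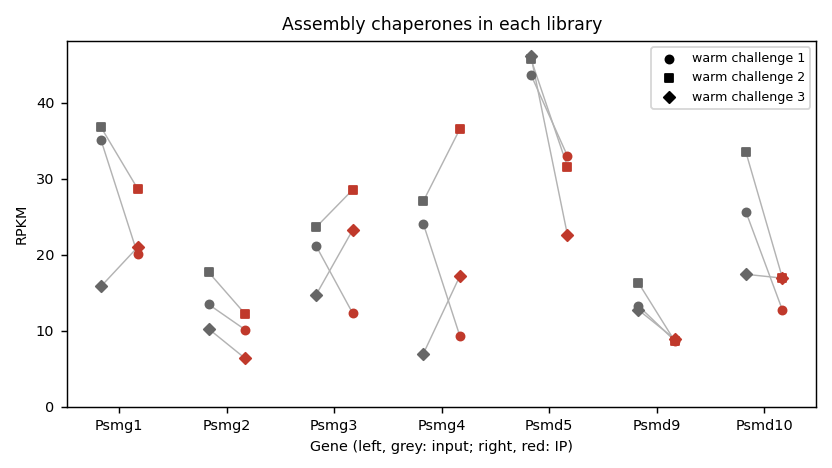
RPKM of the 7 assembly chaperone genes in input (left of each pair, grey) and IP (right, red), with a line joining the libraries of 1 warm challenge and the challenge shown by the marker. All lines of Psmd5, Psmd9, Psmd10 and Psmg2 go down, and those of Psmg3 and Psmg4 go down in challenge 1 and up in challenges 2 and 3.

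Genes that work with the proteasome were compared alongside, namely ubiquitin genes, ubiquitin-activating and conjugating enzymes, ubiquitin ligases, shuttle factors, deubiquitinases, other factors that bind or mature the proteasome (among them Pomp, Adrm1 and Shfm1), the segregase Vcp and its cofactors, and the regulators of proteasome transcription. All 41 of them listed in the table were tested, with 0 higher and 0 lower in IP, beside 0.892% and 3.29% of all genes. At an unadjusted p under 0.05 there were 4 (9.76%), below the 24.4% of all genes. Their median log2 fold was 0.04, with 22 of 41 positive. Within challenges 1, 2 and 3 the median differences were -0.34, 0.33 and 0.78 for the 4 ubiquitin genes. For the 10 conjugating enzymes they were -0.60, 0.11 and 0.20, so a rise from challenge 1 was not particular to the core. The 2 activating enzymes fell (0.88, 0.31 and 0.08), as did Vcp with its cofactors (-0.06, -0.32 and -0.31). The whole list had -0.24, -0.0032 and 0.05. The largest fold belonged to Uba1, the main ubiquitin-activating enzyme, at 80.8, 75.1 and 93.8 RPKM in inputs 1 to 3 and 167, 121 and 136 RPKM in IP 1 to 3 (log2 fold 0.75, SE 0.24, adjusted p = 0.102). Every IP library exceeded every input for this gene, as for 5 of the 41 and 6.85% of all genes. The reverse held for 8 of the 41 and 23.5% of all genes. Ubqln4, a shuttle factor of ubiquitylated proteins, had the most negative fold (-0.66, SE 0.21, adjusted p = 0.0980), with inputs of 36.6 to 42.2 RPKM and IP libraries of 21.2 to 27.1 RPKM. Nfe2l2, the stress-induced relative of Nfe2l1, had -0.65 (SE 0.36, adjusted p = 0.305). Vcp, which extracts ubiquitylated proteins for degradation, had 0.60 (adjusted p = 0.181). Without IP 1, Ubqln4 was lower and the conjugating enzyme gene Ube2r2 higher (2 of 41 past the threshold, where 13.8% of all genes passed), and 0 of the 47 proteasome genes passed, with a lowest adjusted p of 0.0519 for Psmd5 (limma).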

How the data were processed

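The authors deposited linear RPKM values, named so in the file header, for all libraries together. Build mm9 is named in the submitters' processing notes. The sources used here do not give the aligner, counter or annotation. Each listed value exceeds 0.1 RPKM, so genes at or below that in any library are missing. Reads of near-identical copies, such as the pseudogenes of Psma5, Psmb5, Psmb6 and Psmb7, could have been divided between loci.

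Values were analysed as log2(RPKM + 1), which understates the folds of low genes, for the 12328 genes that reached 1 RPKM in 3 or more libraries. The fractions were compared with limma 3.58.1 (trend, R 4.3.3, two-sided, no block), with Benjamini-Hochberg adjustment over all genes tested and a threshold of 0.05. The script was tested on simulated data. Relative depth is the most frequent ratio of the input 1 value to that of the library, over genes with both under 0.6 RPKM. Python 3.11.15 drew the plots and searched promoters. The members and lists were chosen with earlier results of these data known. Full statistics were given for the member of each role with the largest absolute fold and for the most abundant one, and for the 3 largest folds of the pathway list. Psmb5, Psmd9, Psme3 and Vcp were added after their values were seen.

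Input and IP of a warm challenge share its number in the labels, which do not say that they share animals or lysate. The main fit did not pair them. Only the replicate block and the differences within each challenge took them as paired, on the ground of the number. The deviations of input and IP from their group means correlated by 0.05, 0.61 and 0.27 in challenges 1, 2 and 3. Those of unlike numbers correlated by -0.52 to 0.18. For challenge 1 the like number was not the closest: IP 1 had 0.18 with input 3, and input 1 had 0.16 with IP 2. Deviations within a group are tied through its mean, so these values are not independent. Alternatives were other pseudocounts, filters and scalings, the replicate block, no trend and omission of each library.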

Additional observations from a re-analysis of the deposited data

How the results depend on the processing

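The count of proteasome genes past the threshold was 0 in each direction under all 15 alternatives, among them the replicate block over the paired libraries (median log2 fold -0.07), which changed no call. The members' median log2 fold, -0.07 over the 6 libraries, was 0.11 after median scaling and 0.026 after quantile normalization, and between -0.17 and 0.087 when 1 library was left out. Pathway genes past the threshold were 0 to 1 higher and 0 to 1 lower in these omissions. Folds of single genes were recomputed for 15 members only, those named by the rule and Psmd9. Of these, the log2 folds that changed sign when 1 library was left out ranged from -0.12 to 0.67 for Psmb10, -0.16 to 0.40 for Psmb4, -0.17 to 0.29 for Psmd4 and -0.18 to 0.15 for Psme1, which was 0.11 after median scaling. Without both libraries of warm challenge 1, added after seeing the data, Psmc3ip had 0.031, Psmd4 -0.027 and Psme1 0.12. Among all 14 core genes the positive folds numbered 7 without input 3 and 8 without IP 2, against 12, so other core genes changed sign too. The cause was not tested. The absolute depth is unknown, so counting error could not be separated from other spread.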
